A study of Homo sapiens with 4 samples.

Results

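The NKG2D ligand genes are a family of 8 human genes, MICA, MICB, ULBP1, ULBP2, ULBP3, RAET1E, RAET1G and RAET1L, followed here in Jurkat, a line grown from a human acute T cell leukemia (T-ALL). They were found by symbol, each matched 1 of the 64252 gene IDs in the count table, and 6 of the 8 passed the filter on low counts. The family was proposed after a comparison of these same libraries had been read, in which RAET1E stood among the largest rises, so every difference between the groups given for its members is a description without a test. Cells carrying a short hairpin RNA against the transcription factor SOX4 (sh-SOX4, 2 libraries) were compared with cells carrying a scrambled hairpin (sh-Scb, 2 libraries), both groups being the same line. The sources used here state neither the target site of the hairpin, nor the number of clones or hairpins, nor whether replicates were separate cultures. The p-values therefore reflect no more than the spread among these 4 libraries, which may be technical.

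NKG2D is an activating receptor of natural killer (NK) cells, CD8 T cells and gamma-delta T cells, encoded by KLRK1 and coupled in humans to the adaptor DAP10, the product of HCST. Its ligands are distant relatives of the MHC class I heavy chain that present no peptide to T cell receptors and that are known to be induced by cell stress, DNA damage and transformation. MICA and MICB encode transmembrane proteins and lie within the MHC. The ULBP and RAET1 genes lie together on the long arm of the same chromosome, and RAET1E, RAET1G and RAET1L are also named ULBP4, ULBP5 and ULBP6.

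The libraries summed to between 29093287 and 36636219 counts, so that 3 counts corresponded to 0.0794 to 0.101 CPM, counts scaled to a common library size by the TMM method. SOX4 itself had 195 ± 5.61 CPM in sh-SOX4 and 274 ± 4.26 CPM in sh-Scb (SD, n = 2 each), so that 71.1% of its control level was left (edgeR adjusted p 1.24e-05). The label of the line was checked against T cell markers: all 9 were counted, with summed levels of 1520 to 1550 CPM in sh-SOX4 and 1200 to 1220 CPM in sh-Scb, 6 of them called higher and 2 lower. Of 8 NK cell markers 1 was called lower and 6 were too low to test, with sums of 1.77 to 1.88 CPM in sh-SOX4 and 2.88 to 3.69 CPM in sh-Scb. The 6 myeloid markers summed to 3.90 to 4.10 CPM in sh-SOX4 and 1.72 to 2.26 CPM in sh-Scb, with 1 called higher and LYZ and FCN1 at 0. The 3 B cell markers summed to 13.7 to 13.9 CPM in sh-SOX4 and 66.3 to 67.8 CPM in sh-Scb, with 1 called lower, 1 not called and 1 too low to test. The epithelial markers reached 1.17 to 1.18 CPM in sh-SOX4 and 0.767 to 1.26 CPM in sh-Scb with none called, and the fibroblast markers 17.4 CPM in sh-SOX4 and 24.5 to 25.9 CPM in sh-Scb with 1 called lower and COL1A2 at 0. Beside these counts of calls, 23.2% of all 19897 tested IDs were called higher and 20.9% lower. The part of these marker levels in the results below was not tested. In such bulk samples, fewer cells making a transcript and less transcript per cell cannot be told apart.

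Sequence decides how well reads can be told apart between family members. ULBP2 and RAET1L had 96.7% identical bases over 738 aligned coding bases, RAET1G was 94.6% identical to ULBP2 over the same length, and MICA and MICB were 92.1% identical over 989 aligned bases. RAET1E was 61.3% (ULBP2) to 64.1% (RAET1G) identical to the other ULBP and RAET1 genes. The first 90 coding bases of ULBP2, RAET1G and RAET1L, the copies whose counts can mix, are shown 5′ to 3′. They come from the GENCODE release 29 transcripts on GRCh38. Capitals mark bases that differ from ULBP2, 17 in RAET1G and 14 in RAET1L. The copies differ more here than over all 738 aligned coding bases, where 698 (RAET1G) and 714 (RAET1L) were identical to ULBP2.
ULBP2: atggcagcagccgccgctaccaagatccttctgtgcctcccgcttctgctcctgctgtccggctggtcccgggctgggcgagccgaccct
RAET1G: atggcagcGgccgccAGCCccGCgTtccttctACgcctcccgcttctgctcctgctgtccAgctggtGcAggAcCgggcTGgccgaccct
RAET1L: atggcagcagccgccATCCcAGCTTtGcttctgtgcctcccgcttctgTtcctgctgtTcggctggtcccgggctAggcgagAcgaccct

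Over whole annotated transcripts, 32.2% of the 50-base stretches of ULBP2 also occur in transcripts of other genes, RAET1L and RAET1G, and 11.9% of its 100-base stretches do. For RAET1L the shares were 31.5% and 11.8%. The other members stood below 20% at 50 bases, apart from RAET1E with 33.7%, almost all of it in AL355312.5. That is an annotated protein-coding gene on the same strand, which shares 1050 exonic bases with RAET1E. The count table has no row for AL355312.5, so its reads have no count of their own. The part of AL355312.5 in the RAET1E counts was not tested. The sources used here give neither the read length nor the treatment of reads with several matches.

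RefSeq promoter windows on GRCh38.p14 were found for all 8 members, 10 windows in all because RAET1E has 3 annotated starts. Those of MICA, MICB and the most upstream RAET1E start are shown because they are the ones holding a heat shock element or an E-box, the sites that heat shock factors and MYC are known to bind, and because MICA and RAET1E had the widest differences between the groups. Each is the 250 bases before the start, 5′ to 3′ in the direction of the gene, on chr6:31403345-31403594 (plus strand), chr6:31497895-31498144 (plus strand) and chr6:149898114-149898363 (minus strand). Capitals mark the heat shock element, searched as GAANNTTC or TTCNNGAA, and the E-box, searched as CACGTG, on both strands.
MICA: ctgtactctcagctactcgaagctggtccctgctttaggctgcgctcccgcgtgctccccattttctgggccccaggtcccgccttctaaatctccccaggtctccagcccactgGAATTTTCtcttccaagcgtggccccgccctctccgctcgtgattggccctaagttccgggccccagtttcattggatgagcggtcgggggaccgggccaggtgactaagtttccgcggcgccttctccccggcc
MICB: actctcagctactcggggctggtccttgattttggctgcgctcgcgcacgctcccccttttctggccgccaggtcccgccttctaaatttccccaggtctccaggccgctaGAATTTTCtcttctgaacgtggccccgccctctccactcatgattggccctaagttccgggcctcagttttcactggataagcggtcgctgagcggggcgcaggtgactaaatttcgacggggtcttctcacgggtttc
RAET1E: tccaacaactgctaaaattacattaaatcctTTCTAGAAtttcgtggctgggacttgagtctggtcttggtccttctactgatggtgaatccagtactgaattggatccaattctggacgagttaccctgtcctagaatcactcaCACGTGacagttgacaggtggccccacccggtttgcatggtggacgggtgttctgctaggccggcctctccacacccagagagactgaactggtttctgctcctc

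MICA and MICB carry the same heat shock letters, beginning 135 and 139 bases before the start. The RAET1E window holds 1 heat shock match, 219 bases before the start, and 1 E-box, 105 bases before it, and no capital overlaps another searched motif. Of all 35116 windows of this length, 11.6% hold a heat shock match and 6.34% an E-box, against 3 and 1 of the 10 windows of the family. The SOX motifs ACAAAG and AACAAT each occurred in 1 of the 10, in ULBP2 and at the most downstream RAET1E start, against 13.7% and 8.98% of all windows. The GC box GGGCGG was found in 6 of the 10, against 42.6% of all windows, and the antioxidant element TGACNNNGC in RAET1L alone, against 10.9%. The E2F letters TTTNGCGC and the ATF4 letters TGATGNAA were in none of the 10, against 1.51% and 3.14% of all windows. The 10 windows are not independent, since those of MICA and MICB resemble each other and RAET1E supplies 3. No enrichment is therefore read from these counts. These are matches of letters in a window, not observed binding.

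Between the groups, RAET1E had the widest difference and was higher in both sh-SOX4 libraries, MICA and ULBP1 were lower in both sh-SOX4 libraries, ULBP2 was higher in both, and MICB and RAET1G differed by about their standard error (SE). Of the 6 members that passed the filter, 4 had an adjusted p under 0.05 in edgeR's quasi-likelihood fit over all genes, 2 higher and 2 lower, beside 44.1% of all 19897 gene IDs tested. Since this contrast chose the family, nothing is read from that count. The share of all tested IDs whose libraries lie apart by group was not computed, so such separation of members is description alone.

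**Figure D1:**
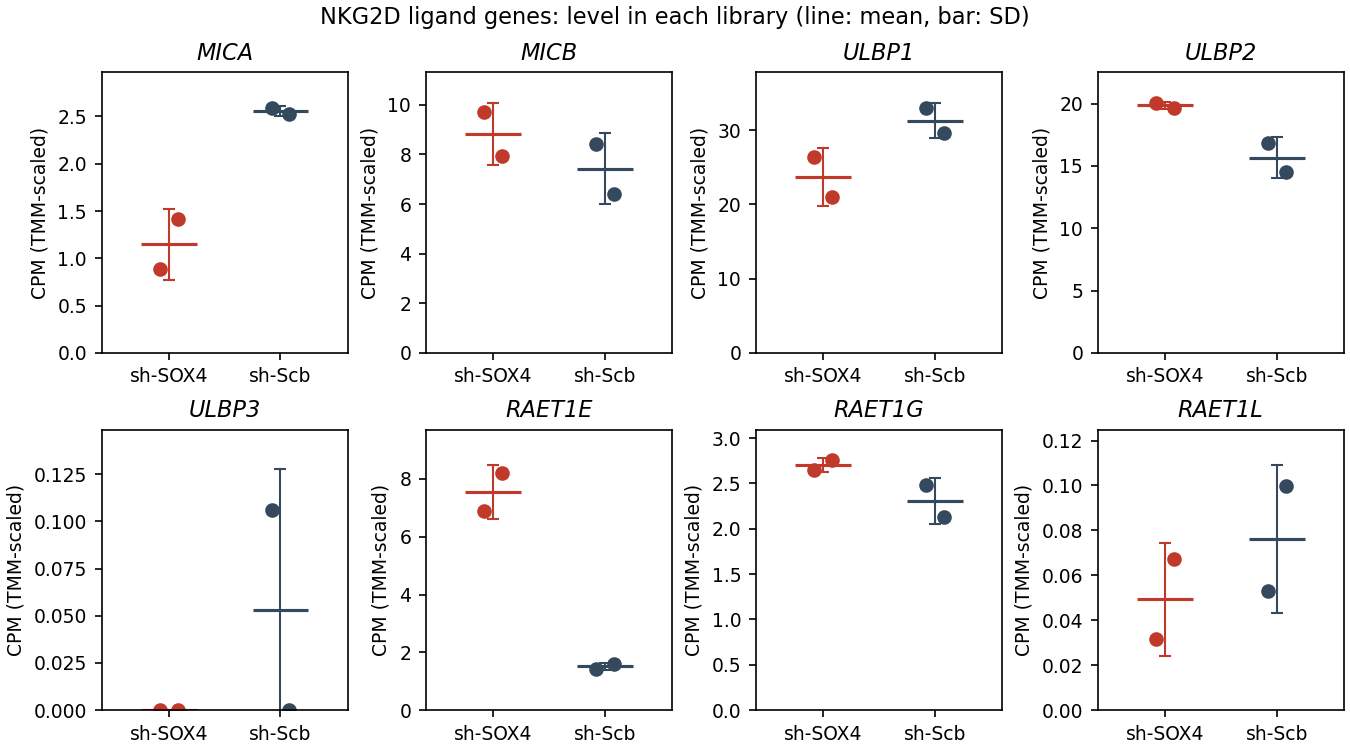
Level of each NKG2D ligand gene in CPM (y axis from 0, separate scale for each gene) in the 2 sh-SOX4 and 2 sh-Scb libraries. Points are libraries, lines the mean and bars the SD; RAET1E lies at 6.87 and 8.20 CPM in sh-SOX4, above both sh-Scb libraries, while the MICA and ULBP1 points of sh-SOX4 lie below those of sh-Scb.

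RAET1E (ENSG00000164520, chromosome 6, 149883375 to 149898102 on GRCh38, minus strand) encodes a ligand with a transmembrane segment, unlike the lipid-anchored products of ULBP1, ULBP2 and ULBP3. Its counts were 218 and 244 in sh-SOX4 and 54 and 48 in sh-Scb. In CPM this was 6.87 and 8.20 in sh-SOX4 and 1.43 and 1.59 in sh-Scb. Both sh-SOX4 libraries stood above both sh-Scb libraries, and the gap between the groups was wider than the gap within either. The means were 7.54 ± 0.936 CPM in sh-SOX4 and 1.51 ± 0.117 CPM in sh-Scb (SD, n = 2 each), a log2 fold change of 2.32 with an SE of 0.21. Only 61 of the 19897 tested IDs, RAET1E included, had a log2 fold change at least this high. Exons of other genes cover 35.8% of its exonic bases, 68 of them belonging to the antisense transcript RAET1E-AS1 (ENSG00000223701), which had counts of 8 and 1 in sh-SOX4 and 3 and 0 in sh-Scb. A second RAET1E-AS1 entry (ENSG00000268592), which shares no exonic base with RAET1E but 138 with RAET1G, had counts of 43 and 28 in sh-SOX4 and 27 and 20 in sh-Scb.

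MICA (ENSG00000204520, chromosome 6, 31399784 to 31415315) and MICB (ENSG00000204516, chromosome 6, 31494881 to 31511124) are the members inside the MHC. MICA had 28 and 42 counts in sh-SOX4, or 0.883 and 1.41 CPM, and 98 and 76 counts in sh-Scb, or 2.59 and 2.52 CPM. The sh-Scb libraries lay close together and the sh-SOX4 libraries below both, but apart from each other. The means were 1.15 ± 0.373 CPM in sh-SOX4 and 2.56 ± 0.0487 CPM in sh-Scb (SD, n = 2 each), a log2 fold change of -1.16 with an SE of 0.31, which was -0.85 when sh-SOX4 replicate 1 was left out and -1.53 when sh-SOX4 replicate 2 was. Without sh-SOX4 replicate 1, MICA was not called. Its neighbour MICB had 9.71 and 7.93 CPM in sh-SOX4 and 8.44 and 6.41 CPM in sh-Scb. These values overlap between the groups, and the log2 fold change of 0.25 had an SE of 0.18. It was 0.06 with sh-Scb replicate 2 left out and 0.46 with sh-Scb replicate 1 left out.

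A limit holds for both MIC genes. GENCODE release 29 lists 34 MICA transcripts by symbol, of which 3 are on the primary assembly, and 26 MICB transcripts, of which 4 are, while every listed transcript of the other 6 members is on the primary assembly. The count table has 3628 IDs that GENCODE lists outside that assembly and that have no symbol in the sources used here, holding 1.51% to 1.68% of the counts of a library. Reads of MICA and MICB counted under such IDs could not be added, so the values above are those of the 2 primary IDs alone.

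ULBP1 and ULBP2, the most abundant members, differed in opposite directions. ULBP1 (ENSG00000111981, chromosome 6, 149964007 to 149973710) had 26.4 and 21.0 CPM in sh-SOX4 and 33.0 and 29.6 CPM in sh-Scb, so both sh-SOX4 libraries were below both sh-Scb libraries. The means were 23.7 ± 3.86 CPM in sh-SOX4 and 31.3 ± 2.39 CPM in sh-Scb (SD, n = 2 each), with a log2 fold change of -0.40 and an SE of 0.12. This value was -0.25 without sh-SOX4 replicate 2, and its place under the threshold was lost there and without sh-Scb replicate 1. ULBP2 (ENSG00000131015, chromosome 6, 149942000 to 149949235) had 20.1 and 19.7 CPM in sh-SOX4 and 16.8 and 14.5 CPM in sh-Scb. Its sh-SOX4 libraries agreed closely and lay above both sh-Scb libraries, with a log2 fold change of 0.34 and an SE of 0.11. The ULBP2 value fell outside the threshold in 6 of 12 other settings, with log2 fold changes of 0.24 to 0.45 over all 12.

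The close relatives of ULBP2 had lower levels per length. RAET1G (ENSG00000203722, chromosome 6, 149916878 to 149923121), whose product has a transmembrane form, had 2.65 and 2.75 CPM in sh-SOX4 and 2.49 and 2.12 CPM in sh-Scb, with a log2 fold change of 0.23 and an SE of 0.24. The groups did not overlap, but the difference was no larger than its SE. RAET1L (ENSG00000155918, chromosome 6, 150018334 to 150025532) had 1 and 2 counts in sh-SOX4 and 2 and 3 in sh-Scb, at or under the floor of 3 counts in every library. With ULBP2, RAET1G and RAET1L counted as 1 gene, the sum was 22.6 ± 0.206 CPM in sh-SOX4 and 18.1 ± 1.84 CPM in sh-Scb (SD, n = 2 each), with a log2 fold change of 0.32. ULBP3 (ENSG00000131019, chromosome 6, 150063150 to 150069095), a lipid-anchored ligand, had 0 counts in both sh-SOX4 libraries and 4 and 0 in the sh-Scb libraries. Neither RAET1L nor ULBP3 was high enough in this line for a difference to be detected at this depth.

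Levels of different genes were compared per kilobase of exon, taking all annotated exons of a gene merged. For RAET1E these are 3004 bases, while its coding transcript RAET1E-201 has 958. Its rank and its share of the levels per kilobase therefore depend on the length taken, and other lengths were not tried. ULBP2 led in every library, at 14.9 and 14.6 CPM per kilobase in sh-SOX4 and 12.5 and 10.8 in sh-Scb, followed by ULBP1 at 8.41 and 6.67 in sh-SOX4 and 10.5 and 9.42 in sh-Scb. MICB was the third in every library, with 3.47 and 2.83 CPM per kilobase in sh-SOX4 and 3.02 and 2.29 in sh-Scb. Below MICB the order changed between the groups. In sh-SOX4, RAET1E was the fourth at 2.29 and 2.73 CPM per kilobase, ahead of RAET1G at 1.78 and 1.85 and MICA at 0.370 and 0.591. In sh-Scb, RAET1G came before MICA, with 1.67 and 1.43 against 1.09 and 1.06, and RAET1E was the sixth at 0.475 and 0.531. In sh-SOX4 the levels of MICB and RAET1E differed by less than the sum of their SDs, 0.451 and 0.311. In the plot of summed levels, the whole family reached 30.3 ± 1.37 CPM per kilobase in sh-SOX4 and 27.5 ± 2.67 in sh-Scb (SD, n = 2 each), and the libraries of the groups overlapped. RAET1E took 10.3% of the counts of the family in sh-SOX4 replicate 1 (95% exact Clopper-Pearson interval 9.05% to 11.7%) and 13.4% in replicate 2 (11.9% to 15.1%). In sh-Scb it took 2.2% in replicate 1 (1.66% to 2.86%) and 2.80% in replicate 2 (2.07% to 3.70%). These intervals and the floors cover counting error only. Without RAET1E the family summed to 56.3 ± 4.96 CPM in sh-SOX4 and 59.4 ± 5.78 CPM in sh-Scb (SD, n = 2 each), and the 2 ranges overlapped.

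**Figure D2:**
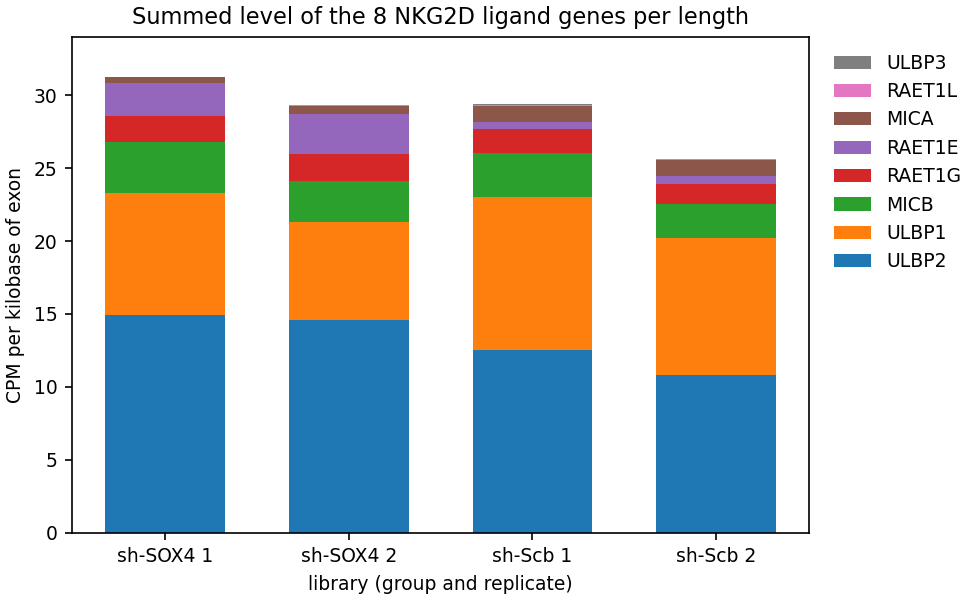
CPM per kilobase of exon (y axis from 0) summed over the 8 genes, 1 bar for each of the 4 libraries with sh-SOX4 at the left. The sums lie between 25.6 and 31.2, and the RAET1E segment is wider in both sh-SOX4 bars, where it is 7.33% and 9.31% of the sum, than in both sh-Scb bars, where it is 1.62% and 2.07%. Lengths are those of merged annotated exons, and the shares depend on that choice.

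The genes whose pattern was nearest to that of RAET1E were picked by the distance between log2 CPM profiles over the 4 libraries, centred on the sh-Scb mean, among 13339 other genes with a symbol and a mean log2 CPM of at least 1. The nearest 5 were OSBPL10, of the oxysterol-binding protein family, AVEN, a caspase inhibitor, OSGIN1, an oxidative stress response gene, S100A9, a subunit of calprotectin, and HSPA8, the constitutive HSP70 chaperone. OSBPL10, at a distance of 0.241, had 6.17 ± 0.115 CPM in sh-SOX4 and 1.25 ± 0.0713 CPM in sh-Scb (SD, n = 2 each). Since 4 libraries in 2 groups carry little more than the contrast itself, this likeness is a description of the size of the change.

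Of the NKG2D receptor complex, HCST was the 1 gene of 3 with enough counts for a test. KLRK1, the receptor, had 0 counts in both sh-SOX4 libraries and 0 and 4 in sh-Scb, which places it at or under the floor in 3 of 4 libraries. HCST, the adaptor DAP10, had 12.8 and 15.3 CPM in sh-SOX4 and 12.4 and 10.8 CPM in sh-Scb, with a log2 fold change of 0.27 (edgeR adjusted p 0.133). TYROBP, the related adaptor DAP12, had 11 and 0 counts in sh-SOX4 and 3 and 0 in sh-Scb and was not tested.

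Surface levels of NKG2D ligands are known to depend on proteases that cut them from the cell. Of 10 genes of shedding and surface control, none was called higher and 4 were called lower by edgeR's quasi-likelihood test at an adjusted p under 0.05, with a median log2 fold change of -0.11, against 23.2% of all tested IDs called higher, 20.9% called lower and a median of -0.01. These shares of all tested IDs are not matched for level, here and for the lists that follow. ADAM9, a membrane metalloprotease, fell to 10.01 ± 0.334 CPM in sh-SOX4, against 34.7 ± 1.56 CPM in sh-Scb (SD, n = 2 each), with a log2 fold change of -1.79 (SE 0.10) and an adjusted p of 6.03e-07. ADAM17, the protease that sheds tumour necrosis factor and many other membrane proteins, had a log2 fold change of -0.39 (SE 0.062) and an adjusted p of 0.000597. ADAM10, its close relative, had a log2 fold change of -0.15 (SE 0.050) and an adjusted p of 0.0298, which was 0.0561 with the replicate block, 0.0803 without sh-Scb replicate 2 and 0.223 without sh-SOX4 replicate 2. PDIA6, the disulfide isomerase ERp5 that is known to act on MICA before shedding, was the other gene called, chosen after its value was seen, with a log2 fold change of -0.14 (edgeR adjusted p 0.0474). For PDIA6 the adjusted p was 0.316 with sh-Scb replicate 1 left out, 0.0953 with sh-SOX4 replicate 1 left out, 0.21 with sh-SOX4 replicate 2 left out and 0.0886 with no filter. The count of lower calls was 2 without sh-SOX4 replicate 2, and 1 gene was called higher without sh-Scb replicate 1. MMP2, MMP9, MMP14, TIMP1, TIMP3 and BSG were tested and not called. Of these, MMP2, MMP9 and TIMP3 had at most 1.19 CPM in any library.

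Of 23 genes reported to regulate NKG2D ligand genes, 11 were called higher and 6 lower, with a median log2 fold change of 0.19. That was 73.9% of the list against 44.1% of all tested IDs, a share not matched for level. With at least 10 CPM in 2 libraries, 7149 of 10797 tested IDs were called, and 9 genes of the list were called higher and 7 lower. An excess of calls in the list is therefore not read from these shares. MYC, a transcription factor reported to drive ULBP genes, rose to 193 ± 0.977 CPM in sh-SOX4, against 50.7 ± 2.07 CPM in sh-Scb (SD, n = 2 each), with a log2 fold change of 1.93 (edgeR adjusted p 1.10e-08). IKZF1, the lymphoid transcription factor Ikaros, rose by 0.50 (SE 0.039, adjusted p 5.29e-06 by edgeR) and NFKB1, an NF-kappaB subunit, by 0.62 (SE 0.059, adjusted p 1.88e-05) on the log2 scale. Those with the smallest adjusted p among the falls were E2F2, a cell cycle factor, with a log2 fold change of -0.62, EZH2, the histone methyltransferase of Polycomb, with -0.39, and ATM, the kinase that signals DNA breaks, with -0.36. Their edgeR adjusted p-values were 8.61e-06, 4.30e-05 and 0.000114. The list's direction is mixed by construction, since it holds activators and repressors, and neither is set against the ligand genes here.

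A list of 15 genes held 12 ligands of other activating NK receptors or adhesion molecules and 3 death receptors, through which killer cells act on a target. Of the 12, 6 were called higher and 1 lower, and of the 3 death receptors 2 were called higher and 1 lower, together 8 higher and 2 lower, against 23.2% and 20.9% of all tested IDs, and a median log2 fold change of 0.28. TNFRSF10A, a death receptor for TRAIL, rose to 11.8 ± 0.161 CPM in sh-SOX4, against 4.19 ± 0.359 CPM in sh-Scb (SD, n = 2 each), with a log2 fold change of 1.495 (edgeR adjusted p 3.42e-05). SLAMF6, a self-binding receptor of lymphocytes, rose by 0.71 (SE 0.054, adjusted p 4.44e-06 by edgeR) and ICAM2, a ligand of the integrin LFA-1, by 0.69 (SE 0.078, adjusted p 5.94e-05) on the log2 scale. The 2 lower calls were TNFRSF10B, the other TRAIL death receptor, with a log2 fold change of -0.41 (edgeR adjusted p 0.000137), and CLEC2B, the ligand of NKp80, with -0.41 and 0.0353. For CLEC2B the edgeR adjusted p was 0.247 when sh-Scb replicate 2 was left out, 0.119 when sh-SOX4 replicate 1 was and 0.0673 when sh-SOX4 replicate 2 was, and DESeq2 gave 0.0838, so that TNFRSF10B was then the 1 lower call.

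Of 8 ligands of inhibitory NK receptors, 7 were tested, none was called higher and 4 were called lower, with a median log2 fold change of -0.19. That was 57.1% against 44.1% of all tested IDs, which again is not matched for level. CLEC2D, the ligand of the inhibitory receptor CD161, fell to 6.61 ± 0.296 CPM in sh-SOX4, against 13.8 ± 0.791 CPM in sh-Scb (SD, n = 2 each), with a log2 fold change of -1.06 (edgeR adjusted p 0.000133). HLA-B, a classical class I heavy chain, had a log2 fold change of -0.51 (SE 0.047, adjusted p 1.44e-05 by edgeR). Its annotated span overlaps that of HLA-C, so some reads of HLA-B and HLA-C may not be told apart. B2M, the class I light chain, had a log2 fold change of -0.18 (edgeR adjusted p 0.00427), and the adjusted p was 0.0632 without sh-SOX4 replicate 2. The remaining call was HLA-C, named after its value was seen, with a log2 fold change of -0.19 (edgeR adjusted p 0.0281), and its adjusted p was 0.148 with sh-Scb replicate 1 left out, 0.191 with sh-SOX4 replicate 1 left out and 0.0528 with the replicate block. All but CLEC2D of these 8 genes have GENCODE transcripts outside the primary assembly, as do ADAM9, HSF1, E2F2 and BAG6 of the lists above, so the limit given for MICA and MICB holds for them too.

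**Figure D3:**
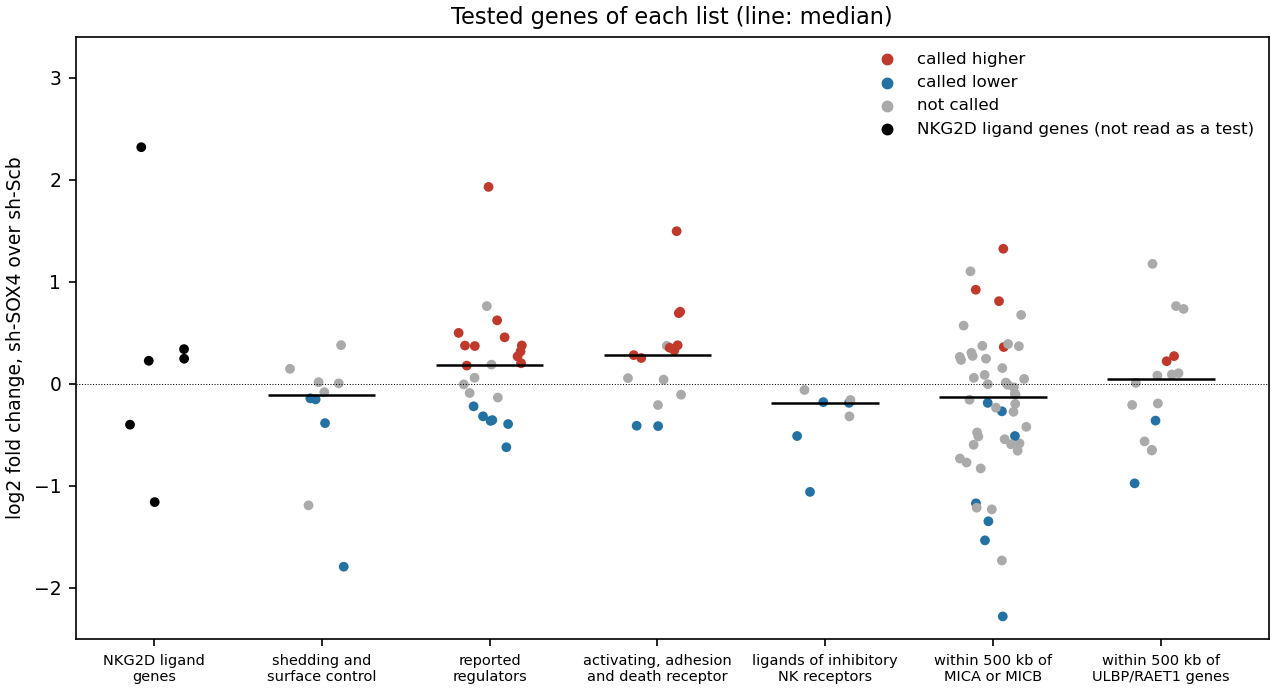
Log2 fold change of sh-SOX4 over sh-Scb for every tested gene of each list except the receptor complex, which is not drawn. Lines are the median of each list other than the ligand genes. Black points are the 6 NKG2D ligand genes above the count filter, red and blue points are genes called higher and lower by edgeR's quasi-likelihood test at an adjusted p under 0.05, and grey points were not called; RAET1E at 2.32 lies above every point of the other lists, and MICA at -1.16 is the lowest ligand gene.

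The genes lying next to the members are given as a description of the loci. Many of them have few counts, and the 44.1% of all tested IDs is not matched for level here either. Of 16 tested genes within 500 kb of a ULBP or RAET1 gene, 2 were called higher and 2 lower (25% against 44.1%), with a median log2 fold change of 0.04. RAET1K, a transcribed pseudogene of the family that lies between ULBP1 and RAET1L, fell to 5.66 ± 0.207 CPM in sh-SOX4, against 11.1 ± 1.39 CPM in sh-Scb (SD, n = 2 each), with a log2 fold change of -0.98 (edgeR adjusted p 0.000619). RAET1K shares 212 of the 3093 different 50-base stretches of ULBP1 and 35 of its 3043 different 100-base stretches. The other calls were TAB2, an adaptor of NF-kappaB signalling, with a log2 fold change of -0.36, PCMT1, a protein repair methyltransferase, with 0.27, and LATS1, a Hippo pathway kinase, with 0.22. Their edgeR adjusted p-values were 0.000218, 0.00158 and 0.0130. That of LATS1 was 0.0822 without sh-Scb replicate 1 and 0.130 with library totals as the scaling. With that scaling 1 gene of the region was called higher.

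Around MICA and MICB, 50 genes were tested within 500 kb, 4 called higher and 7 lower (22% against 44.1%), with a median log2 fold change of -0.13. Of these 50 genes, 42 also have GENCODE transcripts outside the primary assembly, 9 of the 11 called among them, so the limit given for MICA and MICB holds for the share and the median here. Libraries of 1 group could lie far apart: CSNK2B, a casein kinase subunit named after its values were seen, had 41 and 538 counts in sh-SOX4 and 958 and 596 in sh-Scb. HLA-B, given above, was among the lower. MSH5, a meiotic MutS homologue, had a log2 fold change of -1.17 and its read-through with the next gene, MSH5-SAPCD1, of -1.35, with edgeR adjusted p-values of 0.000123 and 0.00296. Their annotated spans overlap, so some of their reads may not be told apart. VARS2, a mitochondrial valyl-tRNA synthetase, rose by 0.81 and GTF2H4, a TFIIH subunit whose span overlaps it, by 1.32 on the log2 scale, with edgeR adjusted p-values of 0.000501 and 0.00146. LTB, lymphotoxin beta, had a log2 fold change of 0.92 (edgeR adjusted p 0.0144), and the adjusted p was 0.0683 without sh-Scb replicate 2 and 0.0687 without sh-SOX4 replicate 1. Without sh-Scb replicate 2, 2 genes of the region were called higher, and with at least 10 CPM in 2 libraries 1 was. With library totals as the scaling, 11 were called lower.

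**Figure D4:**
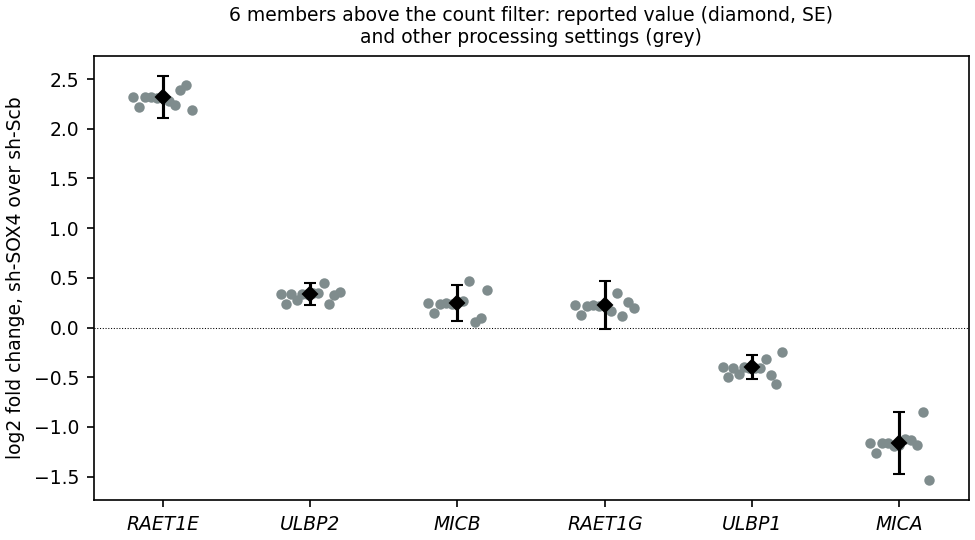
Log2 fold change of sh-SOX4 over sh-Scb for the 6 members above the count filter. Black diamonds with bars are the values given here with their SE and grey points the other processing settings, among them each library left out; RAET1E stays between 2.18 and 2.44, MICA between -1.53 and -0.85 and ULBP1 between -0.57 and -0.25, while MICB spreads from 0.06 to 0.46 and RAET1G from 0.11 to 0.35.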

How the data were processed

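RNA-seq of Jurkat gave 2 sh-SOX4 and 2 sh-Scb libraries, made from TRIzol RNA with a TruSeq kit, per the labels' protocols. The authors deposited raw read counts by Ensembl gene ID, whole numbers with no normalization. HISAT2 2.2.0, StringTie and hg38 appear in the submitters' processing notes without their roles. Annotation release, strand use and filters are not stated there, so genes that overlap on either strand may share reads that cannot be told apart. Control columns, named NC, were read as sh-Scb with the same numbers. Of 64252 IDs, 56105 had a symbol and 56591 are in GENCODE 29 (GRCh38, the assembly of hg38).

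IDs passing filterByExpr (10 counts, 15 in total) in edgeR 4.0.16 under R 4.3.3 were scaled by TMM and tested by group with the robust quasi-likelihood fit, which had 2 residual degrees of freedom, with Benjamini-Hochberg adjustment over 19897 IDs and a threshold of 0.05. The SE is the log2 fold change over the square root of F. Replicates differed beyond sampling noise: chi-square per gene had a median of 1.60 in sh-SOX4 and 1.71 in sh-Scb, where sampling alone gives 0.455. Levels per kilobase use merged annotated exons.

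Members, lists and motifs were chosen with earlier results of these data known. Genes named were SOX4, all members, at most 3 genes per list and direction by smallest adjusted p, and the 5 nearest to the member that changed most. The receptor genes, PDIA6, HLA-C, CSNK2B and genes listed without values fall outside that rule and were chosen after their values were seen. Other settings were scaling by median ratios or by library totals, dropping the filter, requiring 10 CPM in 2 libraries, DESeq2 1.42.0, limma 3.58.1 with voom, blocking on replicate, omitting a library, thinning counts to the smallest library, and adding up ULBP2, RAET1G and RAET1L. In simulated counts (2 against 2 libraries, 19897 IDs), calls were made for 49.3% of 67 genes with 1.5-fold, 67.2% of 67 with 2-fold and 86.4% of 66 with 4-fold changes, and for 7 of 19697 unchanged IDs. These were the only IDs changed in the simulation, whereas 44.1% of IDs were called in the data. Its rates therefore need not hold for this contrast. Plots used matplotlib 3.10.9.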

Additional observations from a re-analysis of the deposited data

How the results depend on the processing

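Of 19897 tested IDs, 8775 were called, and the other settings gave 7149 to 8889. The number tested differed between settings: the 7149 calls came with at least 10 CPM in 2 libraries, where only 10797 IDs were tested. The called share was therefore larger there. With library totals as the scaling, the median over all IDs was -0.11 (log2) and 40.8% of calls were higher, where TMM gave -0.01 and 52.5%. The same-numbered libraries did not deviate together (correlation -0.03 over 2 pairs), and a replicate block gave 8378 calls and the same 4 calls among the NKG2D ligand genes. Those 4 calls (2 higher, 2 lower) became 2 with at least 10 CPM in 2 libraries (1 higher, 1 lower), where only 2 members were tested. With library totals, with no filter and with DESeq2, 1 higher call was left, RAET1E, and ULBP2 was no longer called. Leaving out 1 library gave 2 to 3 calls, 1 to 2 of them higher and 1 to 2 lower. As a description of values that chose the family, the log2 fold change ranged from 2.18 to 2.44 for RAET1E over these settings. No sign changed among the 6 tested members, SOX4, HCST and the genes printed with a log2 fold change from the lists and the neighbours, nor among the 5 genes nearest to RAET1E. At 0 to 4 counts a library, depth limits what can be said of ULBP3 and RAET1L.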
